A study of Mus musculus with 2 samples.

Results

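Chemokine and chemokine receptor mRNA was compared between 1 wild-type (WT) and 1 PPARβ-null (KO) mouse liver library, both made 48 hr after partial hepatectomy (PH), the surgical removal of part of the liver that starts regeneration. Members were all genes whose symbol begins with Ccl, Cxcl, Cx3cl, Xcl, Ccr, Cxcr or Cx3cr followed by a digit and whose locus was not flagged by the authors' software as too deep to quantify. This gave 60 of 33224 gene symbols: 39 ligands, 19 receptors and 2 pseudogenes of Ccl19. Both groups of mice were male C57BL/6, labelled as 4 months old, and the KO mice lacked PPARβ (gene Ppard), a lipid-activated nuclear receptor. The question was whether regeneration differs without PPARβ. Whether a library held RNA of 1 mouse or of several was not given in the sources used here, and neither unoperated livers nor other time points were among the libraries. Each value is therefore 1 measurement without replicates: no test between genotypes was possible, no p-value is given, and the intervals below cover counting error only. Each library also had its own sequencing lane name, so lane name and genotype cannot be told apart.

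Chemokines are small secreted proteins that guide leukocytes along concentration gradients. They bind receptors of the G-protein-coupled family, which signal through Gi proteins, and many ligands share a receptor while many receptors share ligands. In the liver, hepatocytes, Kupffer cells, sinusoidal endothelial cells and stellate cells make chemokines that draw neutrophils, monocytes and lymphocytes into injured tissue, and the homeostatic ligand Cxcl12 is made without injury.

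Levels were deposited as FPKM, fragments scaled to transcript length and to the mapped fragments of the library, so that genes can be set side by side. From single-exon genes, 1 fragment on a 1 kb transcript was worth an estimated 0.0183 FPKM in WT and 0.0178 FPKM in KO, and this gave each member's estimated fragments. Ppard itself was at 2.67 FPKM in WT and 2.42 in KO. The files give 1 level for the whole locus and not for the deleted part, so this value does not check the genotype labels.

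Of the 60 members, 7 were listed at 0 in both libraries, 22 had a mean FPKM below 0.1, and 31 passed a mean of 0.1 FPKM: 23 ligands, 7 receptors and 1 pseudogene. Only 11 members had a mean of at least 1 FPKM, and 3 had at least 10: the CXCR4 ligand Cxcl12, the CXCR2 ligand Cxcl1 and the CCR1 ligand Ccl9. With 0.1 FPKM added to both values, 25 of the 31 were lower in KO and 6 were higher, beside 74.8% of all 15727 passing genes that were lower. By more than 2-fold, 8 members were lower (25.8% of the 31, beside 9.94% of all genes) and 1 was higher (beside 2.08% of all genes). Low levels moved more across the table: among all genes with a mean between 0.1 and 1 FPKM, 14.9% were lower by more than 2-fold, and 20 of the 31 members, 5 of the 8 among them, had a mean below 1 FPKM. The member higher by more than 2-fold was Cxcl1, and the 8 lower ones were the ligands Ccl9, Cxcl2, Ccl24, Ccl2 and Cxcl10, the receptors Ccr2 and Ccr1, and the pseudogene Ccl19-ps1. The median log2(KO/WT) with 0.1 FPKM added was -0.50 for the ligands and -0.76 for the receptors, beside -0.25 for all genes. These medians depend on the low values: with 1 FPKM added they were -0.12 and -0.19, beside -0.17 for all genes, so that the ligand median no longer lay below that of all genes. Over every receptor with a value above 0 the median was -0.31, beside -0.21 for all such genes. After centring the KO library on the median of genes with a mean of at least 1 FPKM, which shifted the median of all genes by 0.22, the medians were -0.29 for ligands and -0.62 for receptors. On that scale 24 members were lower and 7 higher, or 77.4% lower beside 53.2% of all genes, and 7 were lower by more than 2-fold beside 7.36% of all genes, since Ccr1 no longer passed that limit.

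**Figure D1:**
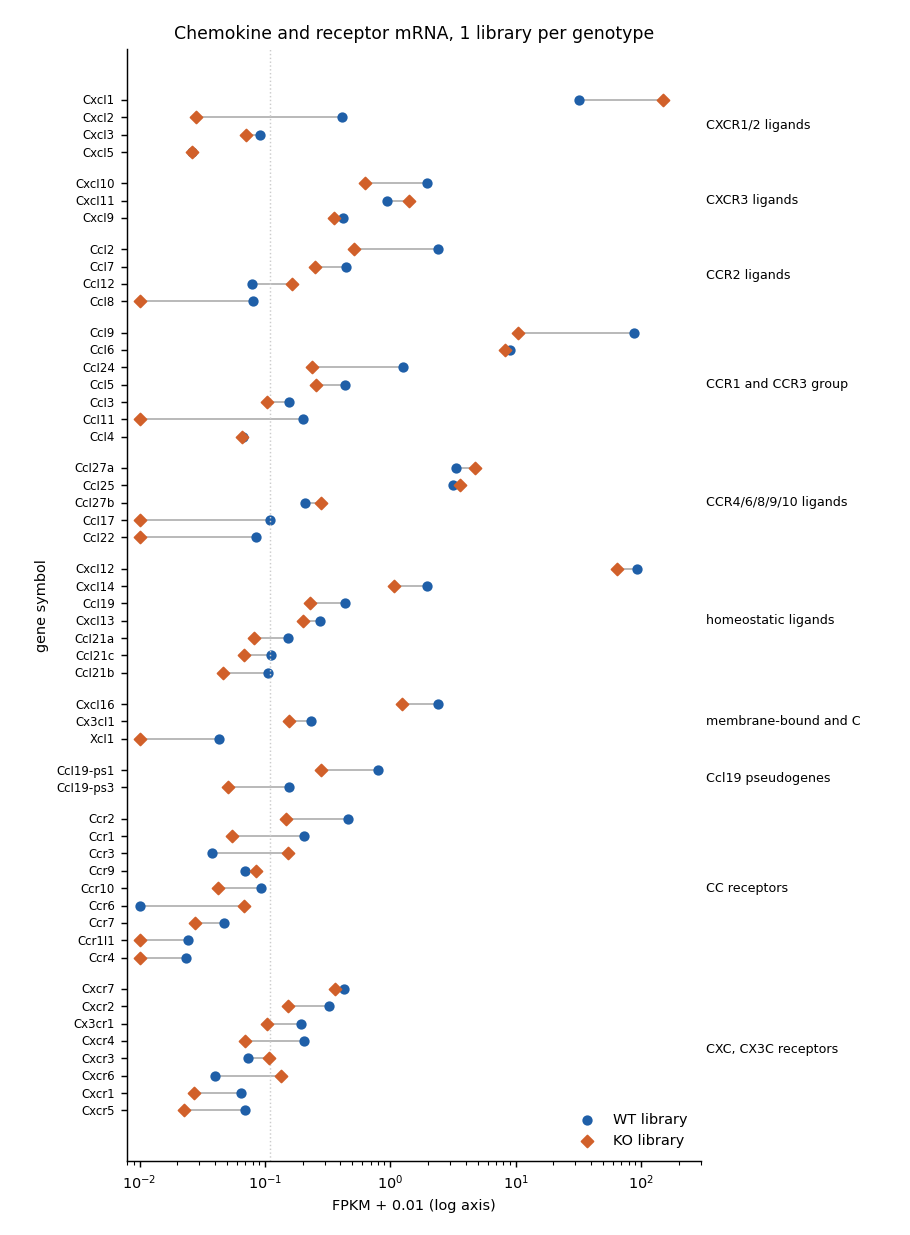
FPKM + 0.01 (log axis) of 52 members with a value above 0, by role; circles are the WT library, diamonds the KO library, and the dotted line marks 0.1 FPKM. Cxcl1 sits to the right in KO (151 against 31.9 FPKM), while Ccl9, Ccl2, Ccl24 and Cxcl2 sit to the left.

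The DNA before the start sites of 5 of these genes is shown because neighbouring or related genes differed between the libraries: Cxcl1 against Cxcl2, Ccl9 against Ccl6, and the interferon-inducible Cxcl10. NF-kB is the inflammatory transcription factor known to switch on Cxcl1, Cxcl2 and Cxcl10, interferon acts through the ISRE element, and PPAR receptors with their RXR partner bind direct repeats called DR1. Each line gives the 250 bases 5′ of the start from RefSeq on GRCm38.p6, read 5′ to 3′ on the gene's strand: chr5:90890995-90891244 (plus) for Cxcl1, chr5:90903649-90903898 (plus) for Cxcl2, chr5:92348890-92349139 (minus) for Cxcl10, chr11:83578637-83578886 (minus) for Ccl9 and chr11:83593088-83593337 (minus) for Ccl6. Capitals mark matches on either strand to GGG and TTCC with 3 free bases between (NF-kB), to GAAA and GAAA with 2 free bases between (ISRE), or to AGGNCA and AGGNCA with 1 free base between (DR1), where N is any base.
Cxcl1: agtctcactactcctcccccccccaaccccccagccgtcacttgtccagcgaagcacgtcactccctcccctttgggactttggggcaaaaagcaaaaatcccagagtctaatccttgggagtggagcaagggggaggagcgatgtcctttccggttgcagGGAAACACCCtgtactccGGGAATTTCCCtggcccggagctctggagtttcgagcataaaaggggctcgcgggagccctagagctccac
Cxcl2: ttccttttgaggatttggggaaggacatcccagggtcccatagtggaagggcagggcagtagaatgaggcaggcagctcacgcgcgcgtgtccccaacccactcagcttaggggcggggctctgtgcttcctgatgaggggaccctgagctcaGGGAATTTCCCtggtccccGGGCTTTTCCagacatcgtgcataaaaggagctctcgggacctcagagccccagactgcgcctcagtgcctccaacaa
Cxcl10: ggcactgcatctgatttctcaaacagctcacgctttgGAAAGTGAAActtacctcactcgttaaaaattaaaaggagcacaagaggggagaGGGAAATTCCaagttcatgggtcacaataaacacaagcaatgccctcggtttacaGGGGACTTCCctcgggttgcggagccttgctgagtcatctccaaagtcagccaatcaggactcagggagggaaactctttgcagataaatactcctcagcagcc
Ccl9: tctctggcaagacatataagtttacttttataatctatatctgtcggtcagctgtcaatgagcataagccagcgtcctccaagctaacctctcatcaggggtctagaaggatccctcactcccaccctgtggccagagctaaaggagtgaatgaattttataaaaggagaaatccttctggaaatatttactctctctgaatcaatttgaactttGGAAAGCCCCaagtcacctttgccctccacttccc
Ccl6: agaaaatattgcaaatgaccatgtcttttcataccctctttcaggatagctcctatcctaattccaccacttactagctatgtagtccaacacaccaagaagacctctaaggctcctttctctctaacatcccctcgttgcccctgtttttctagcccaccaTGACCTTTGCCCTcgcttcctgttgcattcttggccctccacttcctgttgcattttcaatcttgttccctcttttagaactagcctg

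Cxcl1 and Cxcl2 share the run gggaatttccctgg of 14 bases, which starts 71 bases before the start in Cxcl1 and 97 before it in Cxcl2 and holds an NF-kB match in both. The same NF-kB letters lie 73 to 64 bases before the start of Cxcl3. Cxcl10 holds 2 NF-kB matches, from 159 to 150 and from 104 to 95 bases before its start, and 1 ISRE match from 213 to 204. Ccl9 holds 1 NF-kB match, 35 to 26 bases before its start. Ccl6 holds none but has the only DR1 match among the 41 members whose promoters were searched, from 88 to 76. Of 41 member genes found in the promoter table, 9 held the NF-kB letters, 3 the ISRE letters and 1 the DR1 letters. Counted by promoter, these were 9, 3 and 1 of 48, and in all 32851 promoters the shares were 4.65%, 2.98% and 0.338%. Cxcl1 and Cxcl2, which went opposite ways between the libraries, hold the same NF-kB letters in their shared run. Each also holds a further NF-kB match with other letters, 89 to 80 bases before the start in Cxcl1 and 78 to 69 in Cxcl2. A match describes letters and does not show binding.

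Among the ligands of CXCR1 and CXCR2, the receptors that draw neutrophils, Cxcl1 stood out. Cxcl1, a neutrophil attractant that hepatocytes also make, was at 31.9 FPKM in WT and 151 in KO, 4.74-fold higher in KO (95% counting interval 4.49 to 4.99). This rested on an estimated 1662 and 8072 fragments. Only 44 of 15727 genes had a higher log2(KO/WT), and 14 of the 5109 genes with a mean of at least 10 FPKM. By level, 2291 genes were above Cxcl1 in WT and 458 in KO. Cxcl2, the gene that follows it on chromosome 5 and acts on the same receptor, was at 0.401 FPKM in WT against 0.0183 in KO, from an estimated 40.1 and 1.88 fragments. It was 21.9-fold lower in KO, with a wide interval of 5.32 to 175. The remaining genes of the group were near the detection limit: Cxcl3 was at 0.0811 and 0.0603 FPKM, Cxcl5 at 0.0160 and 0.0161, and Cxcl15 was listed at 0 in both libraries. Cxcl1 was thus the one abundant CXCR2 ligand in both livers, and the one of the group that was higher in KO by more than 2-fold.

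The receptor side of this pair was lower in KO. Cxcr2, carried mainly by neutrophils, was at 0.314 FPKM in WT and 0.144 in KO, 2.19-fold lower (1.35 to 3.77). Cxcr1 was at 0.0544 and 0.0174 FPKM, 3.34 and 1.10 estimated fragments, too few for a comparison. Neutrophil markers were mostly lower beside it: of 12 markers, 7 passed the mean of 0.1 FPKM, 6 were lower and 1 higher. Of all genes, 74.8% were lower (53.2% after centring, where the markers stayed at 6 and 1). No neutrophil marker was lower by more than 2-fold with 0.1 FPKM added. The 12 markers summed to 16.1 FPKM in WT and 8.67 in KO. S100a8, a calcium-binding protein of neutrophils and monocytes, was at 6.68 and 3.33 FPKM and its partner S100a9 at 6.11 and 3.48, while the defining markers Ly6g, Mpo and Camp were listed at 0 in both. Their part in the Cxcr2 result was not tested. In whole liver, fewer cells of a type and less RNA per cell cannot be told apart.

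**Figure D2:**
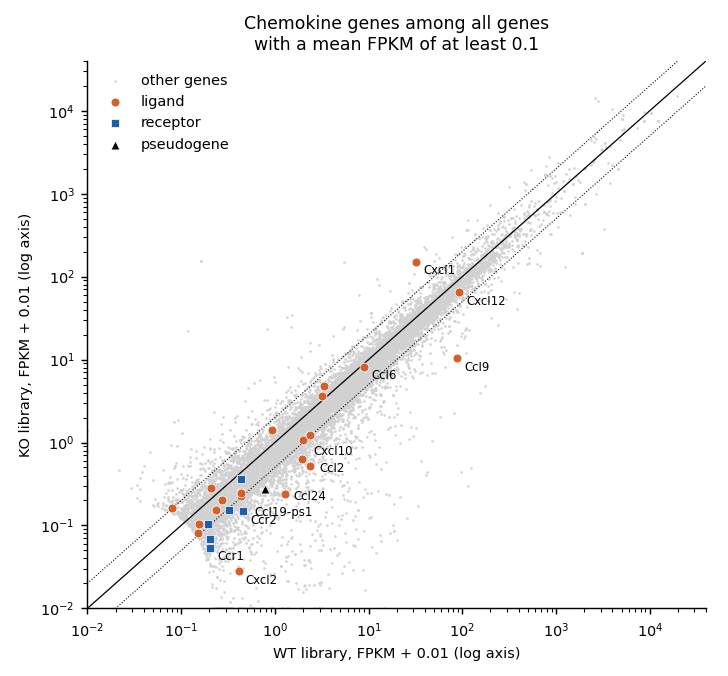
Each point is a gene with a mean of at least 0.1 FPKM, WT on the horizontal and KO on the vertical axis (FPKM + 0.01, log axes); ligands are orange circles, receptors blue squares, the pseudogene a black triangle, the solid line is equality and the dotted lines are 2-fold. Cxcl1 lies above the band of other genes and Ccl9 far below it, while Cxcl12 and Ccl6 lie within it.

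Ccl9, Ccl6, Ccl24, Ccl5, Ccl3, Ccl11, Ccl4 and Ccl26, most of them ligands of CCR1 or CCR3, formed the next group. All 5 that passed were lower in KO as deposited (4 after centring, where Ccl6 turned), beside 74.8% of all genes (53.2% after centring). Of these 5, 2 were lower by more than 2-fold, beside 9.94% of all genes. The group's sum was 98.4 FPKM in WT and 19.3 in KO. Ccl9, a CCR1 ligand known in mice as MIP-1γ, made up most of it. Ccl9 was at 87.3 FPKM in WT and 10.5 in KO, 8.34-fold lower (7.94 to 8.77). On the log2 scale with 0.1 FPKM added, the difference was -3.05. Among the 5109 genes with a mean of at least 10 FPKM, 34 had a lower value. Ccl6, the neighbouring CCR1 ligand, was at 9.0 and 8.18 FPKM, 1.10-fold lower with an interval that included 1 (0.988 to 1.22). Its sign depended on the scaling: log2(KO/WT) was -0.14 as deposited, 0.10 after centring and 0.06 with equal upper quartiles. Ccl24, an eosinophil attractant that acts on CCR3, was at 1.26 FPKM in WT and 0.229 in KO, 5.51-fold lower (3.17 to 9.63). Ccl5 was at 0.424 and 0.246 FPKM and Ccl3 at 0.147 and 0.0944, both attractants of monocytes and T cells, with intervals that included 1. Ccl11, an eosinophil attractant, was at 0.191 FPKM in WT, about 11.3 fragments, and was listed at 0 in KO. Ccl4 was at 0.0563 and 0.0552 FPKM, and Ccl26 was listed at 0 in both.

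Of the receptors of these ligands, Ccr1 and Ccr3 were low. Ccr1 was at 0.195 FPKM in WT and 0.0442 in KO, 4.40-fold lower (1.89 to 11.9), on 30.1 and 7.02 estimated fragments. Ccr3, the eosinophil receptor, was the other way round at 0.0280 FPKM in WT against 0.143 in KO, from 5.02 and 26.2 fragments, a mean below 0.1 FPKM that was left out of the counts. Both the CCR1 ligand Ccl9 and its receptor were thus lower in KO, while the CCR3 ligand Ccl24 was lower and its receptor was not.

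The CCR2 axis recruits monocytes from blood. Ccl2, its main ligand, was at 2.38 FPKM in WT and 0.506 in KO, 4.71-fold lower (3.19 to 7.22). Ccr2 was at 0.448 and 0.139 FPKM, 3.23-fold lower (2.24 to 4.64). Ligand and receptor were thus both lower in KO by more than 2-fold. Ccl7 was at 0.430 and 0.239 FPKM, 1.80-fold lower with an interval of 0.801 to 4.12. Ccl12, at 0.0692 FPKM in WT and 0.154 in KO, rested on 2.03 and 4.65 fragments, and its interval ran from 0.399 to 25.6 for KO/WT. Ccl8 was at 0.0709 FPKM in WT and listed at 0 in KO. The group summed to 2.95 FPKM in WT and 0.899 in KO.

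Monocyte and macrophage markers were mostly lower beside these genes, in a table where 74.8% of all genes were lower (53.2% after centring). By more than 2-fold, 9.94% of all genes were lower (7.36% after centring). Of 7 monocyte markers, 6 passed, all 6 were lower in KO, 4 by more than 2-fold (3 after centring), and their sum was 12.7 FPKM in WT and 5.03 in KO. Plac8, expressed in inflammatory monocytes, was at 7.46 and 3.96 FPKM. Of 10 macrophage markers, 9 were lower and 1 higher (8 and 2 after centring), and the sum was 79.97 FPKM in WT and 46.6 in KO. Cd5l and Clec4f, markers of Kupffer cells, were at 18.4 and 10.8 FPKM and at 17.3 and 10.6 FPKM, but the Kupffer cell markers Marco, at 6.58 and 7.37 FPKM, and Timd4, at 1.18 and 1.14, were not lower to that extent. The summed macrophage markers differed by 1.72-fold and the summed monocyte markers by 2.52-fold, beside 8.34-fold for Ccl9. The monocyte markers that passed ranged from 1.45-fold lower (Ly6c2) to 7.88-fold lower (S100a4). The part of these cells in the lower Ccl2, Ccr2, Ccr1 and Ccl9 was not tested.

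**Figure D3:**
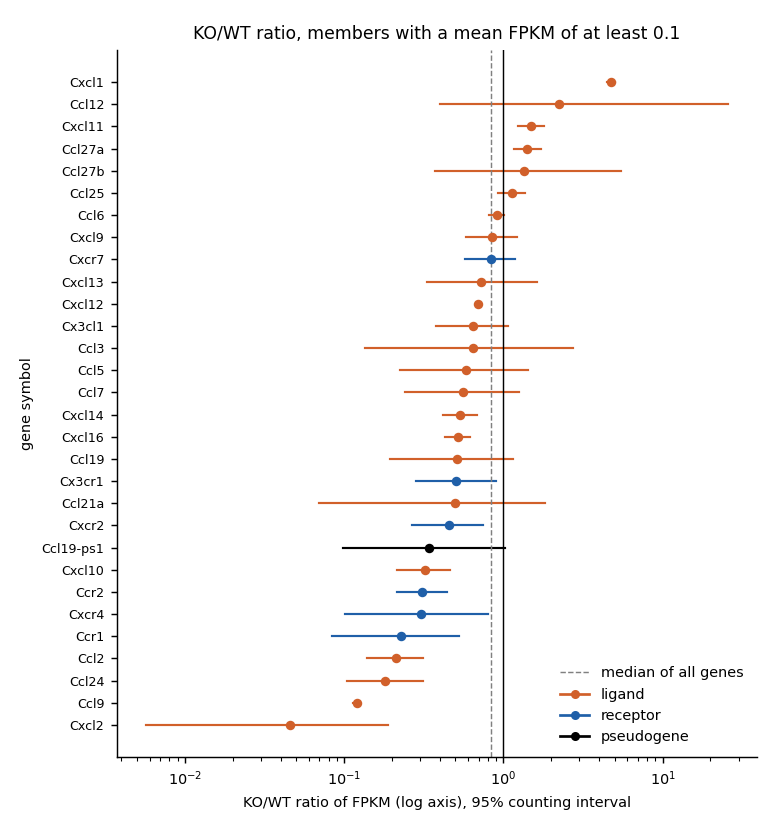
KO/WT ratio of FPKM (log axis) for 30 members with a mean of at least 0.1 FPKM, each with its 95% counting interval; orange marks ligands, blue receptors and black the pseudogene, the solid line is 1 and the dashed line the median of all genes. The intervals of 13 members lie below 1 and those of 3 (Cxcl1, Cxcl11 and Ccl27a) above it. Of all genes, 74.8% were lower, and the intervals cover counting error only, on the deposited scale.

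The ligands of CXCR3, which interferon induces and which draw activated T cells and NK cells, were split. Cxcl10 was at 1.94 FPKM in WT and 0.623 in KO, 3.12-fold lower (2.15 to 4.64). Cxcl11 was at 0.934 and 1.39 FPKM, 1.49-fold higher in KO (1.24 to 1.79). C57BL/6 mice are known to carry a frameshift in this gene, so its mRNA does not report intact protein. Cxcl9 was at 0.412 and 0.349 FPKM, with an interval that included 1 (0.821 to 1.72 for WT/KO). Cxcr3 was at 0.0631 and 0.0981 FPKM, below the mean of 0.1. Of 9 T cell markers, 3 passed, and their summed level over the whole list was 0.933 FPKM in WT and 0.599 in KO. Of 6 NK cell markers none passed. Exons of Cxcl10 overlap those of Art3, and exons of Cxcl11 those of Gm2673, so reads may be shared between these genes.

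The homeostatic ligands keep lymphocytes and progenitor cells in place without inflammation, and all 5 that passed were lower in KO, none by more than 2-fold, beside 74.8% of all genes that were lower. Cxcl12, the ligand of CXCR4 and of the scavenger receptor CXCR7, was the most abundant chemokine in WT, at 92.6 FPKM, and was at 64.5 in KO, 1.44-fold lower (1.41 to 1.46). Its log2(KO/WT) of -0.52 was below that of 11551 of 15727 genes, so 4175 genes were lower still. Cxcr4 was at 0.195 and 0.0595 FPKM, 3.27-fold lower (1.25 to 9.94), with a log2(KO/WT) of -0.89 once 0.1 FPKM was added. Cxcr7 was at 0.421 and 0.352 FPKM with an interval that included 1 (0.849 to 1.74 for WT/KO). Cxcl14, an epithelial chemokine, was at 1.97 and 1.05 FPKM, 1.87-fold lower (1.47 to 2.39). Ccl19, a CCR7 ligand that guides dendritic cells, was at 0.428 and 0.218 FPKM (WT/KO 0.875 to 5.18), and Cxcl13, the CXCR5 ligand of B cells, at 0.263 and 0.191 FPKM. Of 6 B cell markers 2 passed, both lower, and the list summed to 0.514 and 0.251 FPKM, and of 6 dendritic cell markers 3 passed, 2 lower and 1 higher, with sums of 3.79 and 2.86 FPKM. The CCR7 ligands Ccl21a, Ccl21b and Ccl21c lay between 0.0362 and 0.142 FPKM, and Cxcl17 was listed at 0 in both. Ccr7 was at 0.0371 and 0.0175 FPKM and Cxcr5 at 0.0591 and 0.0126 FPKM. Ccl19-ps1 was at 0.784 FPKM in WT and 0.268 in KO (WT/KO 0.977 to 10.2) and Ccl19-ps3 at 0.145 and 0.0407. The Ccl19 and Ccl21 loci include near-identical copies, so reads may be split among them and these values are uncertain.

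Markers of endothelial and stellate cells, known sources of Cxcl12 in liver, are given beside it, in a table where 74.8% of all genes were lower as deposited and 53.2% after centring. All 8 endothelial markers were lower in KO (6 after centring, none of them by more than 2-fold), with a sum of 72.3 FPKM in WT and 53.6 in KO and with Clec4g at 21.8 and 18.9 FPKM. All 7 stellate cell markers were lower (6 after centring), with a sum of 89.6 FPKM in WT and 60.8 in KO and with Dcn at 62.6 and 46.9 FPKM. The summed stellate markers differed by 1.47-fold and the endothelial ones by 1.35-fold, beside 1.44-fold for Cxcl12; their part in it was not tested. Of 8 hepatocyte markers, 3 were lower and 5 higher (2 and 6 after centring), with sums of 13488 and 14609.6 FPKM. Of 5 cholangiocyte markers all were lower as deposited but 3 after centring, near the share of all genes, with sums of 29.8 and 25.7 FPKM.

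The ligands of CCR9 and CCR10 guide cells to gut and skin. They were the group in which every passing member was higher in KO, 3 of 3, none by more than 2-fold. Of all 15727 passing genes, 3959 were higher as deposited and 7367 after centring. Ccl27a was at 3.35 FPKM in WT and 4.74 in KO, 1.41-fold higher (1.17 to 1.72). Ccl25 was at 3.19 and 3.60 FPKM, with an interval that included 1 (0.925 to 1.37). Ccl27b was at 0.199 and 0.270 FPKM on 4.74 and 6.60 fragments, also with an interval that included 1 (0.373 to 5.45). Exons of Ccl27a overlap Il11ra1 and those of Ccl27b overlap Il11ra2, and the Ccl27 copies are near-identical, so both values are uncertain. Ccr10 was at 0.0827 and 0.0322 FPKM and Ccr9 at 0.0592 and 0.0743, the latter in a locus that the file names jointly with Gm17200. Of the CCR4 and CCR6 systems little was present: Ccl17 and Ccl22 were at 0.1004 and 0.0754 FPKM in WT and listed at 0 in KO, and Ccr4 was at 0.0136 FPKM in WT and 0 in KO. Ccr6 was listed at 0 in WT and at 0.0582 FPKM in KO, and Ccl1, Ccl20, Ccl28 and Ccr8 were listed at 0 in both. Ccl28 lies on an unplaced contig, and all 372 loci on such contigs were listed at 0, so its 0 may be a failed estimate.

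The membrane-bound ligands, which also act as adhesion molecules, were both lower in KO, beside 74.8% of all genes (53.2% after centring). Cxcl16 was at 2.38 FPKM in WT and 1.24 in KO, 1.93-fold lower (1.61 to 2.32), with exons that overlap Zmynd15. Its receptor Cxcr6, found on T and NKT cells, was at 0.0302 and 0.123 FPKM, about 3.13 and 13.1 fragments. Cx3cl1 was at 0.224 and 0.146 FPKM (WT/KO 0.935 to 2.63). Its receptor Cx3cr1, on monocytes and macrophages, was at 0.186 and 0.0941 FPKM, 1.98-fold lower (1.11 to 3.53). The C chemokine Xcl1 was at 0.0334 FPKM in WT and listed at 0 in KO. Across all receptors, the 7 that passed were all lower in KO. The filter helped to set this count, since some passed through their WT level alone: of the 18 receptors with a value above 0, 13 were lower and 5 higher. As deposited, 74.8% of all genes that passed were lower, and the share among the 18 receptors, which were not filtered, was near that. The share among all genes without the filter is not given here. After centring, the 7 that passed the filter were still lower, beside 53.2% of all genes. Among the receptors that passed and are described here only the interval of Cxcr7 included 1. Ccr1l1 was at 0.0145 FPKM in WT and 0 in KO. Of the 11 receptors below the mean of 0.1 with a value above 0, the 5 with more in KO were Ccr3, Ccr6, Ccr9, Cxcr3 and Cxcr6.

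Summed over the ligands the level was nearly equal, 242 FPKM in WT and 249.7 in KO, but its makeup was not. Cxcl12 held 38.2% of the ligand sum in WT and 25.8% in KO, Ccl9 held 36.1% and 4.19%, and Cxcl1 held 13.2% and 60.5%. These 3 genes made up 87.5% of the sum in WT and 90.5% in KO. Cxcl12 was thus the leading ligand in WT and Cxcl1 in KO. Without Cxcl1 the ligands summed to 210.3 FPKM in WT and 98.7 in KO, and without Cxcl1 and Ccl9 to 123 and 88.2, a 1.39-fold difference.

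Neighbouring genes in the chemokine clusters differed in opposite or unequal ways. On NCBI37, Cxcl1 (chr5:91320267-91322141, plus strand, 4 exons) and Cxcl2 (chr5:91332897-91334935, plus strand) are 10.8 kb apart, and one was higher and the other lower in KO. Ccl9 (chr11:83386421-83392138, minus strand) and Ccl6 (chr11:83401384-83406589, minus strand) are 9.24 kb apart. Ccl9 was 9.70 times the level of Ccl6 in WT and 1.28 times in KO. Cxcl10 and Cxcl11 are 10.7 kb apart and also went opposite ways. In the cluster with Ccl2 on chromosome 11, Ccl2, Ccl7, Ccl11 and Ccl8 had lower values in KO and Ccl12 a higher one. In the receptor cluster on chromosome 9, Ccr1 and Ccr2 were lower, while Ccr3 and Cxcr6, below the mean of 0.1, had higher values.

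**Figure D4:**
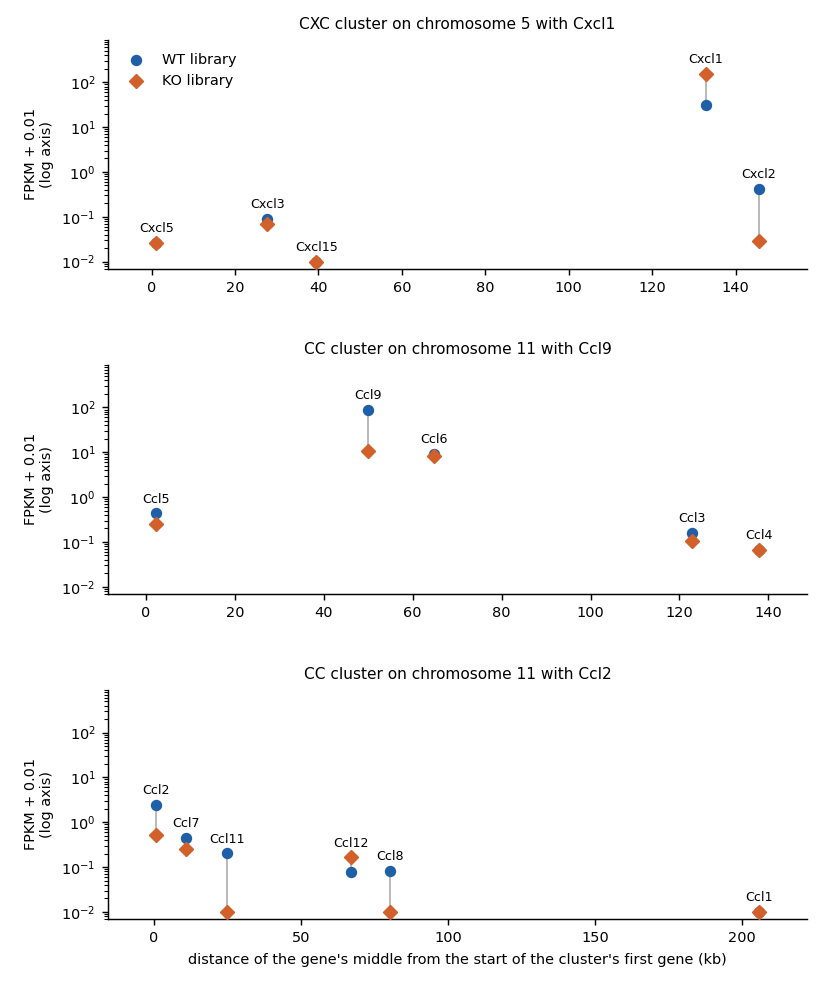
FPKM + 0.01 (log axis) of each gene against the distance of its middle from the start of the first gene in its cluster (kb), for 3 clusters; circles are WT and diamonds KO. Cxcl1 is higher in KO while Cxcl2, 10.8 kb on, is lower, and Ccl9 is lower in KO while Ccl6 beside it is near equal.

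Of 12 symbols of chemokine genes named outside the pattern, 8 were in the table, the other 4 being newer names of genes already counted. Of these 8, 7 passed, 5 lower and 2 higher (4 and 3 after centring), a share near that of all genes (74.8% lower, or 53.2% after centring). Cmklr1, the chemerin receptor, was at 1.11 FPKM in WT and 0.565 in KO. The platelet chemokine Pf4 was at 0.819 and 0.340 FPKM and the scavenging receptor Darc at 0.711 and 0.187. Both were lower by more than 2-fold as deposited, though after centring only Darc was. That was 28.6% of the 7, beside 9.94% of all genes, and 14.3% beside 7.36% after centring. Of 22 genes of chemokine receptor signalling, 20 passed, 19 lower and 1 higher (15 and 5 after centring), with a median log2(KO/WT) of -0.48 beside -0.25 for all genes. Gnb2 and Gnai2, subunits of the Gi protein, were at 71.6 and 51.5 FPKM and at 42.7 and 31.1 FPKM. Gnai1, another Gi subunit, was at 1.11 and 0.221 FPKM and Gng2 at 0.690 and 0.222. They were the 2 genes of the list lower by more than 2-fold, or 10% of the 20, near the 9.94% of all genes.

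**Figure D5:**
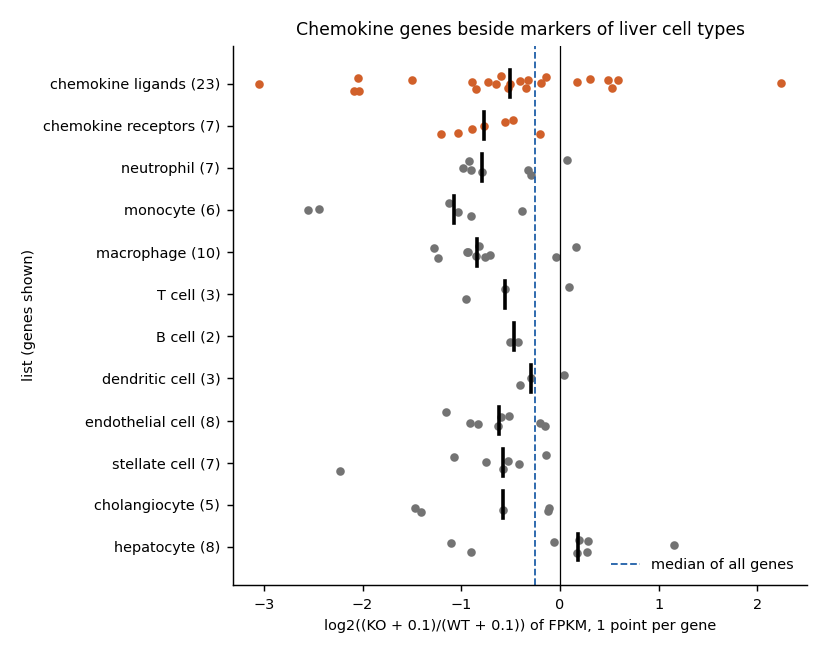
log2((KO + 0.1)/(WT + 0.1)) of FPKM, 1 point per gene with a mean of at least 0.1 FPKM and a black bar at each median; the dashed line is the median of all genes. Medians of the ligands (-0.50), the receptors (-0.76) and every marker list shown except the hepatocyte one lie left of that line. The hepatocyte median (0.18) lies right of it.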

How the data were processed

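RNA was sequenced from 1 WT and 1 KO liver library (100 bp reads, paired-end per the labels, single-end in the text of the study's methods). Per the submitters' processing notes, the authors used TopHat 2.0.0 for alignment (build NCBI37, mm9) and Cufflinks 1.3.0 for levels, and the deposited table holds FPKM per locus in each library. It also holds the authors' fold change, test statistic, p-value, q-value and call for each locus, which were not used. Rows of one symbol were summed, and loci naming several symbols counted for each. Differences are log2((KO + 0.1)/(WT + 0.1)) for genes with a mean of at least 0.1 FPKM, and "more than 2-fold" is on that scale, while printed ratios are of FPKM with nothing added. With 1 library per genotype there was no spread between mice and no test. FPKM was turned into estimated fragments with the depth from single-exon genes (400 to 3000 nt) and the longest GENCODE transcript, which is approximate for genes with several isoforms. The 95% interval of a ratio is exact (Clopper-Pearson) on these fragments and covers counting error only. No ratio is given for a member with a mean below 0.1 FPKM, listed at 0 in a library, or at or under 3 fragments in both.

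Locus starts in the file count from 0 and were moved by 1. Promoters came from the RefSeq table, on another build, and left out the 50 transcribed bases; 41 of the 60 members matched. Named by rule were members past 2-fold, the 3 with the highest mean in each of 10 role groups, receptors with a mean of at least 0.1, ligands with a mean of at least 1 and, of each other list, the 2 highest genes and those past 2-fold that a sentence turns on; the remaining members were named to account for all, after their values were seen. The values of 1 receptor are not reported here, though it is counted among the members. The members and lists were chosen with earlier results of these data known. There were 11 alternatives: other pseudocounts, filters, scalings, row rules and a 1.5-fold limit. Python 3.11.15, pandas 2.3.3, scipy 1.17.1 and matplotlib 3.10.9 were used, and the scripts were tested on simulated data.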

Additional observations from a re-analysis of the deposited data

How the results depend on the processing

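With a pseudocount of 1 FPKM the median log2(KO/WT) was -0.12 for ligands and -0.19 for receptors, and 2 members (in place of 8) were lower by more than 2-fold, since most members lie below 1 FPKM. With 0.01 FPKM, 2 members were higher by more than 2-fold and 10 lower. Among members with a mean of at least 1 FPKM, 3 were lower, and the receptor median could not be given because no receptor reached it. At more than 1.5-fold, 2 were higher and 15 lower. Without the filter 10 were lower and the receptor median was -0.31. Under the other scalings 7 or 8 were lower and 1 was higher, and of the named members only Ccl6 changed sign. No paired analysis was possible because each genotype had 1 library, so no library could be left out either. Depth limits members with a mean below 0.1 FPKM to between 0 and 26.2 estimated fragments in a library.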

Other observations

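Genes that induce or report the induction of chemokines went both ways, in a table where 74.8% of all genes were lower as deposited. Of 22 such genes, 16 passed the mean of 0.1 FPKM, 7 lower and 9 higher in KO (3 and 13 after centring on the median of genes with a mean of at least 1 FPKM), and their median log2(KO/WT) was 0.15 beside -0.25 for all genes. The cytokine Il1a was at 2.30 FPKM in WT and 0.749 in KO and Il1b at 0.474 and 0.149, both lower by more than 2-fold. The receptor for both, Il1r1, was at 28.2 and 56.5 FPKM. Tnfaip3, an NF-kB target that feeds back on the pathway, was at 0.504 and 2.03 FPKM. Zfp36, which destabilises cytokine mRNA, was at 35.4 and 74.4 FPKM. Of the 16 genes, 12.5% were lower by more than 2-fold and 18.75% higher, beside 9.94% and 2.08% of all genes. Tnfrsf1a, the most abundant gene of the list over both libraries, was at 64.5 and 59.6 FPKM. Il17a, Ifnb1 and Lta were listed at 0 in both libraries. These are values of 1 library per genotype, and their relation to Cxcl1 was not tested.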
